A study of Homo sapiens with 9 samples.

Results

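Chromosome 22 was described here through 285 genes, each represented by the brightest of its probe sets that name only that gene. They were all measured genes that the RefSeq gene table places on this chromosome, apart from 27 set aside by name, and they make up 285 of 11954 genes measured on the arrays. Together they are covered by 478 probe sets, and 113 of the genes have more than 1. The chromosome was selected on the log2 differences of its genes between the 3 groups in these same arrays, so shares called, medians and order along the chromosome are given as descriptions and support nothing about it. Genes are taken in chromosomal order. GSTT1 is listed in the gene table on an alternate scaffold and sorts first, so it counts in the first segment below without a known place.

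MDA-MB-231 is a human breast cancer cell line that grows attached to its flask, and every array holds total RNA from 1 of 3 separate passages. The paclitaxel-resistant line (3 arrays) was grown with 7 nM paclitaxel and 1 µM verapamil, the docetaxel-resistant line (3 arrays) with 2 nM docetaxel and 1 µM verapamil, and the sensitive cells (3 arrays) with 1 µM verapamil and no taxane. The sample descriptions name verapamil for all 3 groups, whereas the treatment protocol names it for the sensitive cells only. Verapamil blocks calcium channels and also P-glycoprotein, a drug efflux pump, and taxanes bind microtubules and stabilize them. On the side chain the drugs differ at the nitrogen, which bears a benzoyl group in paclitaxel and a tert-butoxycarbonyl group in docetaxel. The 2 drugs were used at different concentrations, and each resistance is represented by 1 line, so line, drug in the medium and concentration cannot be told apart. P-values measure the spread among passages of a line. Each array averages a whole culture, so a change in every cell and a change in the share of cells that express a gene cannot be told apart.

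Chromosome 22 is a small acrocentric human autosome, rich in genes on its long arm. Near the centromere lies the interval lost in 22q11.2 deletion syndrome, followed by the immunoglobulin lambda locus. The long arm carries the tumour suppressors NF2 and SMARCB1, the fusion partners BCR and EWSR1, the acetyltransferase gene EP300 and the cluster of APOBEC3 cytidine deaminases.

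The array medians ran from 33.7 to 43.9 intensity units, and 24% to 27% of probe sets per array read under 16, the offset added before taking log2. Arrays of the same group correlated at 0.967 to 0.992. Keratins and vimentin were bright in all 3 groups (KRT18 averaged 3154, 3325 and 3640, and VIM 5223, 4682 and 8335, in paclitaxel-resistant, docetaxel-resistant and sensitive cells), while the epithelial marker EPCAM averaged 14.3, 14.8 and 22.1 and the leukocyte marker PTPRC 7.80, 9.90 and 9.29. Among 6 epithelial markers KRT7 was called higher in both lines, at 0.87 (adjusted p = 0.00284) in paclitaxel-resistant and 0.55 (adjusted p = 0.0324) in docetaxel-resistant cells. Among 4 mesenchymal markers VIM was called lower, at -0.60 (adjusted p = 0.00735) in paclitaxel-resistant and -0.74 (adjusted p = 0.00229) in docetaxel-resistant cells, and so was FN1, at -0.69 (adjusted p = 0.0253) in paclitaxel-resistant and -1.69 (adjusted p = 0.000143) in docetaxel-resistant cells. Of 6 blood markers 5 were measured and none was called in either comparison with sensitive cells. Not all of them were dim: HBB averaged 447, 412 and 378 in paclitaxel-resistant, docetaxel-resistant and sensitive cells. In that order CD3E averaged 30.8, 26.4 and 29.8, CD14 27.2, 35.8 and 24.1, and LYZ 3.15, 0 and 3.09. Of 7 fibroblast markers only PDGFRB was called, at 98.8, 101 and 36.4. Of the luminal markers TFF1 (215, 47.5 and 22.7) was called in paclitaxel-resistant cells and FOXA1 (28.2, 22.1 and 5.74) in both lines, and of the melanocytic ones MITF (248, 244 and 40.4) in both, in the same order of groups, and their part in the results was not tested. The 3' minus 5' difference of GAPDH, a measure of RNA quality, was 0.20, 0.094 and 0.10 on the log2 scale in paclitaxel-resistant, 0.13, 0.070 and 0.0067 in docetaxel-resistant and 0.039, 0.025 and 0.014 in sensitive cells. It was higher on all 3 paclitaxel-resistant arrays than on any sensitive one, and its part in the results was not tested. The same difference of ACTB did not separate these groups, at 0.17, -0.13 and -0.07 in paclitaxel-resistant, -0.11, -0.15 and -0.13 in docetaxel-resistant and -0.26, -0.13 and -0.02 in sensitive cells.

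Paclitaxel-resistant cells held more RNA of many chromosome 22 genes than sensitive cells did, and the increases lay mainly in the later part of the gene order. Against sensitive cells, 75 of the 285 genes were called higher (26.3%) and 13 lower (4.56%), and 197 were not called. A gene was called at an adjusted p below 0.05 in limma's moderated test, with the Benjamini-Hochberg correction across all 11954 genes. Of all genes, 10.9% were called higher and 10.7% lower in the same comparison. The median log2 difference was 0.10 over the chromosome 22 genes and -0.02 over all genes. By signal level, of the 156 genes above the median level of all genes 67 were called higher, and of the 129 at or below it 8. Of all 5977 genes above that level 1062 were called higher (17.8%), out of 1301 called higher among all 11954 genes. Calls were thus fewer at or below that level over all genes too.

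In docetaxel-resistant cells fewer chromosome 22 genes were called higher than were called lower. There 19 genes were called higher than in sensitive cells (6.67%) and 27 lower (9.47%), with a median log2 difference of -0.08. Of all genes 10.9% were called higher and 10.2% lower, with a median of -0.05. Without normalization between arrays the split of chromosome 22 calls turned round, to 22 higher and 14 lower. No gene was called in opposite directions in the 2 lines. Single arrays moved these counts: genes called higher numbered 11 with sensitive replicate 2 left out and, for the docetaxel-resistant line, 12 and 11 with its replicate 1 or 2 left out. Genes called lower numbered 16 with sensitive replicate 2 left out and 15 when docetaxel-resistant replicate 3 was dropped.

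Between the resistant lines, 20 chromosome 22 genes were called higher in paclitaxel-resistant than in docetaxel-resistant cells (7.02%), where 0.995% of all genes were called in each direction and 1.99% in either. None was called lower by limma in this comparison. In it, 90 of the 285 genes had an unadjusted p below 0.05 in either direction, as did 1569 of all 11954 genes. On 106 genes the 3 paclitaxel-resistant arrays all lay above the 3 docetaxel-resistant ones and on 9 genes all below, against 10% and 10.4% of all genes. The median log2 difference was 0.19 over chromosome 22 and 0.02 over all genes. The count of 20 became 10 without docetaxel-resistant replicate 1, 10 without replicate 2 and 9 without replicate 3 of that line, and 12 without paclitaxel-resistant replicate 2 and 9 without replicate 3.

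**Figure D1:**
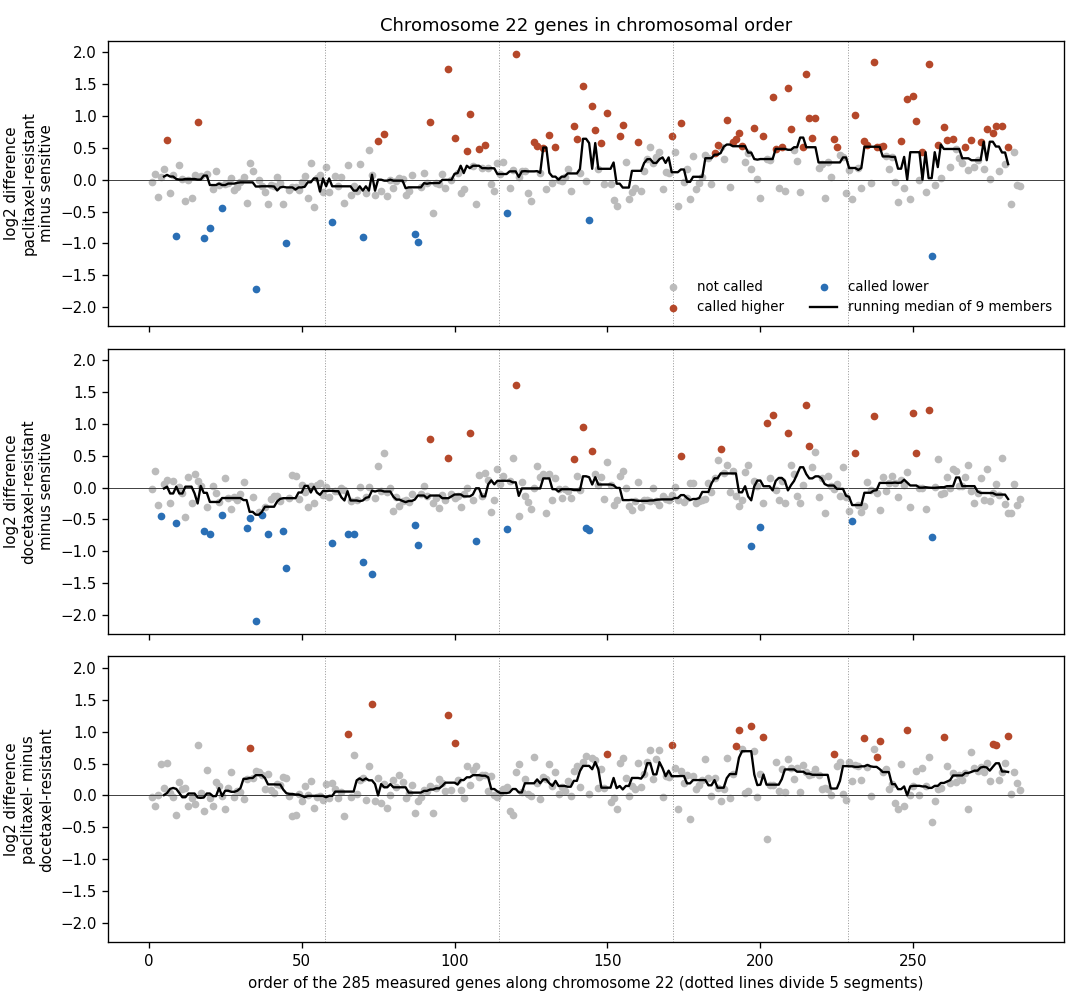
Log2 differences of the 285 genes (vertical axis) against their order along chromosome 22 (horizontal axis), for paclitaxel-resistant minus sensitive, docetaxel-resistant minus sensitive and paclitaxel- minus docetaxel-resistant cells from top to bottom. Each point is 1 gene, called ones are coloured, and the line is the median of 9 neighbouring genes, which in the top panel reaches 0.66 at MCHR1 and in the middle panel falls to -0.43 at SERPIND1.

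The position of the calls along the chromosome was followed in 5 consecutive segments of 57 genes. From the first segment, GSTT1 to RSPH14, to the last, CENPM to ACR, the paclitaxel-resistant line had 2, 9, 17, 22 and 25 genes called higher than sensitive cells and 6, 4, 2, 0 and 1 called lower. The median log2 differences of the segments were -0.06, -0.02, 0.13, 0.37 and 0.36. In the docetaxel-resistant line 0, 3, 4, 7 and 5 genes were called higher and 12, 8, 3, 2 and 2 lower, with medians of -0.16, -0.14, -0.04, 0.04 and 0.00. Both lines had most of their decreases in the first 2 segments, the first of which holds the 22q11.2 interval. In paclitaxel-resistant cells these were 10.5% and 7.02% of the genes of the 2 segments, no more than the 10.7% of all genes called lower. In docetaxel-resistant cells they were 21.1% and 14%, against 10.2% of all genes. Paclitaxel-resistant cells minus docetaxel-resistant cells gave medians of 0.06, 0.13, 0.25, 0.27 and 0.37, with 1, 4, 2, 5 and 8 genes called higher.

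The segment levels were read on each array from the genes above the median level, relative to the mean of the sensitive arrays. In the last segment, with 37 such genes, the medians were 0.50, 0.53 and 0.57 on the paclitaxel-resistant arrays, 0.05, 0.13 and -0.17 on the docetaxel-resistant arrays and -0.05, 0.03 and 0.02 on the sensitive ones. All 3 paclitaxel-resistant arrays lay apart from the others, and the docetaxel-resistant arrays spread around the sensitive ones. In the first segment, with 26 such genes, the medians were -0.22, -0.11 and -0.12 on the paclitaxel-resistant, -0.34, -0.22 and -0.52 on the docetaxel-resistant and -0.04, 0.03 and 0.02 on the sensitive arrays. Here both resistant lines lay below the sensitive arrays on every array.

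**Figure D2:**
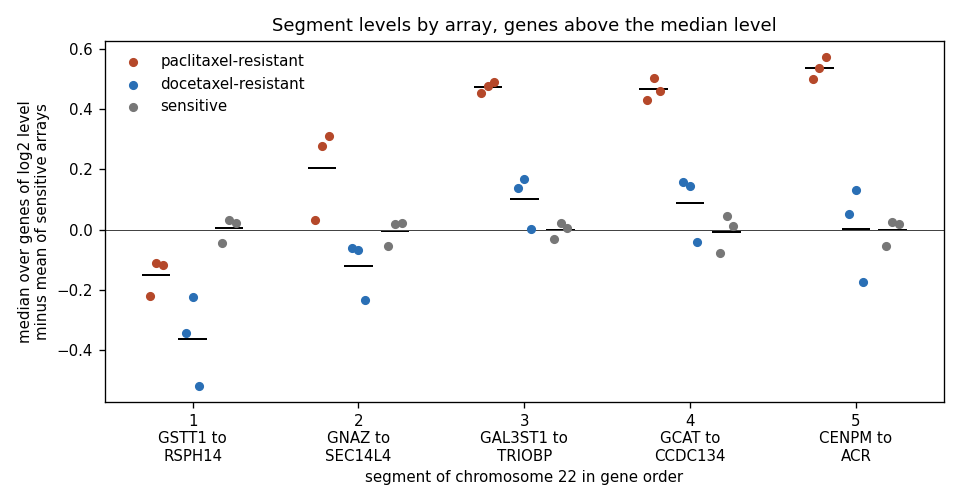
Median level of each segment on each array (points) with the group mean (bar), as log2 level minus the mean of the sensitive arrays, for the 26, 25, 30, 38 and 37 genes above the median level in segments 1 to 5. The paclitaxel-resistant arrays stand at 0.43 or above in segments 3 to 5 and below 0 in segment 1.

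Stretches of neighbouring genes were called together only in the paclitaxel-resistant line against sensitive cells. A stretch was at least 3 genes called in the same direction and next to each other in the order of the genes described here. The measured genes set aside by name were left out of that order. Such genes can lie between members of a stretch, and stretches with them in place were not examined. The longest was SLC25A17, ST13, XPNPEP3, RBX1 and EP300. Values per gene are deposited intensities on replicates 1 to 3 of each group. ST13 encodes an HSP70 cochaperone and read 1502, 1464 and 1363 in paclitaxel-resistant, 1032, 1059 and 1412 in docetaxel-resistant and 540.0, 321 and 486 in sensitive cells. XPNPEP3, a mitochondrial aminopeptidase gene, read 72, 75.3 and 61.7 in paclitaxel-resistant, 49.6, 57.3 and 62.3 in docetaxel-resistant and 20.7, 25.1 and 33.6 in sensitive cells. EP300, which encodes a histone acetyltransferase and transcriptional coactivator, read 84, 67.5 and 93.5 in paclitaxel-resistant, 65.3, 47.3 and 75.9 in docetaxel-resistant and 18.4, 28.9 and 56.6 in sensitive cells. In these 3 genes every paclitaxel-resistant array was above every sensitive array, and the docetaxel-resistant arrays overlapped the paclitaxel-resistant ones. The log2 differences between paclitaxel-resistant and sensitive cells were 1.66 ± 0.15 (adjusted p = 2.09e-05) for ST13, 0.97 ± 0.14 (adjusted p = 0.000677) for XPNPEP3 and 0.97 ± 0.23 (adjusted p = 0.0116) for EP300 (± SE, n = 3 each, here and below). ST13 and XPNPEP3 were also called in docetaxel-resistant cells, at 1.29 (adjusted p = 0.000143) and 0.65 (adjusted p = 0.00753). EP300 was not, at 0.55 (adjusted p = 0.122), though it was called there in 2 of 20 other settings. Another EP300 probe set, averaging 28.8, gave 0.59 there (limma, adjusted p = 0.0145 over all probe sets).

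The other genes of this stretch differed less. RBX1, the RING subunit of cullin ubiquitin ligases, read 933, 892 and 770.4 in paclitaxel-resistant, 621, 705 and 778 in docetaxel-resistant and 789, 386 and 488 in sensitive cells, and 1 sensitive array was above the lowest paclitaxel-resistant array. SLC25A17, a peroxisomal carrier gene, read 218, 189 and 189 in paclitaxel-resistant, 113, 174 and 185 in docetaxel-resistant and 165, 87.1 and 156 in sensitive cells. Its difference of 0.51 ± 0.16 (adjusted p = 0.0441) was the least stable of the stretch, since the call was lost in 15 of 21 other processing settings, while that of RBX1, 0.66 ± 0.17 (adjusted p = 0.0158), was lost in 6 of 21. The promoters of the stretch are shown because its members were called together. RefSeq (build GRCh38.p14) gives a window of 300 bases, from 250 before to 50 after the start, for 4 of the 5 genes, and ST13 is named only. Capitals mark the GC box, GGGCGG or CCGCCC on the other strand, and letters run 5′ to 3′ on the gene's strand.
SLC25A17, chr22:40819297-40819596, minus strand: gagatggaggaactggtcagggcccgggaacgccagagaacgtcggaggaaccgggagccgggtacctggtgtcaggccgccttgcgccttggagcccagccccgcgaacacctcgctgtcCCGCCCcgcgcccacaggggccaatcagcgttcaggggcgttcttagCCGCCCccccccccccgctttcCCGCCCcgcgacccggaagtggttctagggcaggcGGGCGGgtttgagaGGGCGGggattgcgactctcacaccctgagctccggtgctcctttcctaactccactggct
XPNPEP3, chr22:40856898-40857197, plus strand: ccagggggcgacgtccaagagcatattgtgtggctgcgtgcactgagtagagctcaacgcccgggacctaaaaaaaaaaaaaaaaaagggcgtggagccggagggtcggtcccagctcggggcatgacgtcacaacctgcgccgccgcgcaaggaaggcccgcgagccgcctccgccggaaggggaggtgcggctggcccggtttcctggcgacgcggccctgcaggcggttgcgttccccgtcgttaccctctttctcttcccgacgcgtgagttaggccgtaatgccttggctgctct
RBX1, chr22:40951128-40951427, plus strand: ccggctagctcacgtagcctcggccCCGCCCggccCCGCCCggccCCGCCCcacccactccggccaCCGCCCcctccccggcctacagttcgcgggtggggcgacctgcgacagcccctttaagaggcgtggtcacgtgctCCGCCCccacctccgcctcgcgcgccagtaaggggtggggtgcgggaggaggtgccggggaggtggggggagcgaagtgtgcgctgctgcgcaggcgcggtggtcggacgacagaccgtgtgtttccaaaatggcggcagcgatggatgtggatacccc
EP300, chr22:41092342-41092641, plus strand: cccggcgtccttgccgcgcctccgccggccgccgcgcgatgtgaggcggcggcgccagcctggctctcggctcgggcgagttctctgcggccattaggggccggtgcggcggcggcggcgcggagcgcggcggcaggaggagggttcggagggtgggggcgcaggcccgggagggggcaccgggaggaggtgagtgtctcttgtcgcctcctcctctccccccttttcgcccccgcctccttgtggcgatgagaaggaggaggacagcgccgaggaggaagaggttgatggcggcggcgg

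The SLC25A17 and RBX1 windows hold 5 GC boxes each and the XPNPEP3 and EP300 windows 0, so these windows did not all share the letters. Of 35116 start windows of all genes listed by RefSeq 45% hold a GC box, over the 275 windows of 194 chromosome 22 genes 65.8%, and over the 91 windows of the 62 genes called higher in paclitaxel-resistant cells 73.6%. Windows of chromosome 22 genes not called higher there held it in 62%. The TATA box TATAAA, searched on both strands, was in 11.5% of all windows and 4.36% of those on chromosome 22. The windows also differed in base composition, with a median of 58.7% G or C over all windows and 66.7% on chromosome 22. It was 67.7% for the genes called higher and 65.3% for those not called higher. The part of base composition in these shares was not tested. A match describes the letters in a window and is no evidence that a factor binds there.

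The second stretch ran over JOSD1, GTPBP1, SUN2 and DNAL4. SUN2, an inner nuclear membrane protein that connects the nucleus to the cytoskeleton, read 294, 264 and 273 in paclitaxel-resistant, 129, 173 and 126 in docetaxel-resistant and 165, 128 and 176 in sensitive cells. GTPBP1, which encodes a GTP-binding protein linked to translation, read 354, 380.0 and 299.6 in paclitaxel-resistant, 205, 235 and 193 in docetaxel-resistant and 198, 191 and 239 in sensitive cells. For both genes all paclitaxel-resistant arrays were above all other arrays. SUN2 differed by 0.73 ± 0.15 (adjusted p = 0.00398) from sensitive cells and by 1.03 ± 0.15 (adjusted p = 0.00432) from docetaxel-resistant cells. GTPBP1 differed by 0.64 ± 0.16 (adjusted p = 0.0136) from sensitive and by 0.78 ± 0.16 (adjusted p = 0.0296) from docetaxel-resistant cells, though the second call was lost in 10 of 21 other settings. Another GTPBP1 probe set, averaging 68.8 over all arrays, gave 0.06 against sensitive and 0.04 against docetaxel-resistant cells. Dimmer ones gave 0.19 and 0.16 at an average of 17.1, and -0.14 and -0.21 at 5.97. JOSD1, a deubiquitinase gene, differed by 0.59 ± 0.15 (adjusted p = 0.0131), and DNAL4, a dynein light chain gene, by 0.52 ± 0.17 (adjusted p = 0.0464), a call lost in 10 of 21 other settings.

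The third stretch ran over ARFGAP3, PACSIN2, TTLL1 and TSPO. ARFGAP3, which encodes an activator of ARF1 GTPase turnover at the Golgi apparatus, read 305, 245 and 220.3 in paclitaxel-resistant, 130.4, 156 and 209 in docetaxel-resistant and 69.4, 32.9 and 82.2 in sensitive cells. Both resistant lines lay above the sensitive cells on every array. TTLL1, a tubulin polyglutamylase gene, read 87.2, 80 and 90.7 in paclitaxel-resistant, 45.4, 47 and 36.6 in docetaxel-resistant and 50.3, 48.1 and 56 in sensitive cells. For TTLL1 the paclitaxel-resistant arrays stood above all others, and the docetaxel-resistant arrays lay below the sensitive ones. ARFGAP3 differed by 1.84 ± 0.21 (adjusted p = 0.000117) in paclitaxel-resistant and by 1.12 ± 0.21 (adjusted p = 0.00296) in docetaxel-resistant cells. TTLL1 differed by 0.51 ± 0.13 (adjusted p = 0.0177) from sensitive and by 0.86 ± 0.13 (adjusted p = 0.00799) from docetaxel-resistant cells. PACSIN2, a membrane-bending protein of endocytosis, and TSPO, an outer mitochondrial membrane protein, differed from sensitive cells by 0.52 (adjusted p = 0.0137) and 0.54 (adjusted p = 0.0166).

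The genes were next read by function, in 12 lists, whose counts stand beside 10.9% of all genes called higher and 10.7% lower in paclitaxel-resistant cells, and 10.9% higher and 10.2% lower in docetaxel-resistant cells. For several lists the docetaxel counts are near these shares, and nothing particular to a list is read from any count.

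Of 19 genes of the cytoskeleton and of cell adhesion, 9 rose in paclitaxel-resistant cells and none fell, and 3 rose in docetaxel-resistant cells. The median log2 differences were 0.51 in paclitaxel-resistant and 0.03 in docetaxel-resistant cells. ARFGAP3, a Golgi protein described above, is among those that rose. GAS2L1, whose product binds both actin filaments and microtubules, read 1386, 1499 and 1557 in paclitaxel-resistant, 583, 744 and 582 in docetaxel-resistant and 495, 333 and 464 in sensitive cells. Every paclitaxel-resistant array was above every docetaxel-resistant array, which in turn was above every sensitive one. GAS2L1 rose by 1.73 ± 0.14 (adjusted p = 1.4e-05) against sensitive and by 1.26 ± 0.14 (adjusted p = 0.00114) against docetaxel-resistant cells. Its smaller rise in docetaxel-resistant cells, 0.47 ± 0.14 (adjusted p = 0.0394), was lost in 13 of 21 other settings.

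MYH9, the heavy chain of nonmuscle myosin, read 2202, 2680 and 2806 in paclitaxel-resistant, 1882, 1751 and 1697 in docetaxel-resistant and 1079, 1113 and 1311 in sensitive cells, with the same order of the groups and no overlap. It rose by 1.15 ± 0.17 (adjusted p = 0.000692) in paclitaxel-resistant and by 0.57 ± 0.17 (adjusted p = 0.034) in docetaxel-resistant cells, the second call being lost in 8 of 20 other settings. TRIOBP, an actin-bundling protein gene, read 661, 735 and 674 in paclitaxel-resistant, 371, 486 and 386 in docetaxel-resistant and 472, 389 and 397 in sensitive cells. TRIOBP was above the other groups on all 3 paclitaxel-resistant arrays, by 0.68 ± 0.14 (adjusted p = 0.00601) against sensitive and 0.80 ± 0.14 (adjusted p = 0.0176) against docetaxel-resistant cells. CELSR1, an atypical cadherin, and PLXNB2, a semaphorin receptor, rose by 0.64 (adjusted p = 0.0385) and 0.80 (adjusted p = 0.00272) in paclitaxel-resistant cells. The CELSR1 call was lost in 9 of 21 other settings, and with probe sets that can match several transcripts left out PLXNB2 turned to -0.31. The PLXNB2 probe set then used was dim, averaging 22.8 over all arrays.

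**Figure D3:**
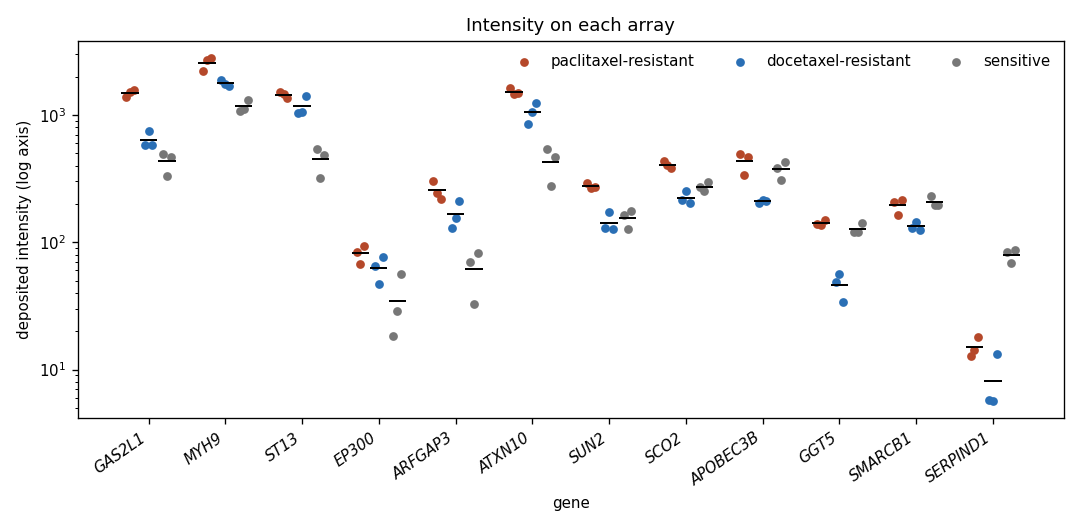
Deposited intensity of 12 genes (log vertical axis) on each array (points), with group means as bars, in paclitaxel-resistant, docetaxel-resistant and sensitive cells from left to right within each gene. GAS2L1 read 1386 to 1557 in paclitaxel-resistant, 582 to 744 in docetaxel-resistant and 333 to 495 in sensitive cells, while APOBEC3B and GGT5 read lower in docetaxel-resistant cells than in both other groups.

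Among 14 genes of mitosis, microtubules and chromosome structure, 7 rose and 1 fell in paclitaxel-resistant cells, and 2 rose and 1 fell in docetaxel-resistant cells. NUP50, a nuclear pore component, read 175, 135 and 107 in paclitaxel-resistant, 96.9, 131 and 192 in docetaxel-resistant and 47.5, 32.7 and 53.9 in sensitive cells. Both resistant lines were above the sensitive cells on all arrays and overlapped each other, with rises of 1.31 ± 0.19 (adjusted p = 0.000618) in paclitaxel-resistant and 1.17 ± 0.19 (adjusted p = 0.00135) in docetaxel-resistant cells. PPP6R2, a regulatory subunit of a phosphatase that acts on the mitotic kinase Aurora A, read 209, 179.5 and 168 in paclitaxel-resistant, 108, 107 and 114 in docetaxel-resistant and 100.4, 88.2 and 115 in sensitive cells. It rose by 0.73 ± 0.12 (adjusted p = 0.00159) in paclitaxel-resistant cells and stood at -0.09 (adjusted p = 0.685) in docetaxel-resistant cells, and the lines differed by 0.81 ± 0.12 (adjusted p = 0.00695). Another PPP6R2 probe set, averaging 50.1 over all arrays, gave 0.38 in paclitaxel-resistant and 0.27 in docetaxel-resistant cells. Between the lines it gave 0.12, and none of these values was called. GTSE1, a microtubule-binding protein of G2 and mitosis, and CBY1, a centriolar and ciliary protein, rose in paclitaxel-resistant cells by 0.63 (adjusted p = 0.00285) and 0.94 (adjusted p = 0.0011).

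The list of 21 mitochondrial genes had 14 called higher and 0 called lower in paclitaxel-resistant cells, with a median log2 difference of 0.51, and 1 called higher in docetaxel-resistant cells, with a median of 0.10. NIPSNAP1, a mitochondrial matrix protein linked to mitophagy, was the gene called in both lines. It read 1019, 897 and 787 in paclitaxel-resistant, 831, 886 and 768 in docetaxel-resistant and 424, 408 and 440.3 in sensitive cells, differing from sensitive cells by 1.03 ± 0.14 (adjusted p = 0.000474) in paclitaxel-resistant and 0.86 ± 0.14 (adjusted p = 0.00155) in docetaxel-resistant cells. TXN2, mitochondrial thioredoxin, read 477, 451 and 478 in paclitaxel-resistant, 315, 378 and 314 in docetaxel-resistant and 284, 265 and 242 in sensitive cells, and MPST, a sulfurtransferase, read 613, 481 and 478 in paclitaxel-resistant, 382, 385 and 329 in docetaxel-resistant and 310.1, 243 and 280.3 in sensitive cells. For both genes the paclitaxel-resistant arrays stood above all others, by 0.77 (adjusted p = 0.00337) and 0.86 (adjusted p = 0.00152) against sensitive cells. Another TXN2 probe set, averaging 229.5 over all arrays, gave 0.44 in paclitaxel-resistant cells and was not called there.

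SLC25A1, the mitochondrial citrate carrier in the 22q11.2 interval, read 852, 638 and 573 in paclitaxel-resistant, 438, 478 and 318 in docetaxel-resistant and 378, 296 and 374 in sensitive cells and rose by 0.90 ± 0.19 (adjusted p = 0.00589). SCO2, a copper chaperone of cytochrome c oxidase, read 436, 401 and 383 in paclitaxel-resistant, 214, 254 and 204 in docetaxel-resistant and 273, 252 and 296 in sensitive cells. SCO2 was above both other groups on all paclitaxel-resistant arrays and below every sensitive array on 2 of 3 docetaxel-resistant arrays, with differences of 0.52 (adjusted p = 0.0212) against sensitive and 0.93 (adjusted p = 0.00707) against docetaxel-resistant cells. Its call against sensitive cells was lost in 4 of 21 other settings. Not every called member of this list is a mitochondrial protein in the strict sense: SLC25A17 is peroxisomal, SFI1 (0.50) is a centrin-binding centrosome protein, and PPARA (0.55) is a nuclear receptor of fatty acid metabolism.

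Of 11 genes of the ribosome and translation 5 rose in paclitaxel-resistant and 2 in docetaxel-resistant cells, with none lower in either. EIF3L, a subunit of an initiation factor, read 3277, 2895 and 2733 in paclitaxel-resistant, 2237, 2396 and 2392 in docetaxel-resistant and 1978, 1498 and 1498 in sensitive cells. EIF3D, another subunit, read 2817, 2626 and 2441 in paclitaxel-resistant, 1927, 2179 and 2106 in docetaxel-resistant and 2003, 1707 and 1637 in sensitive cells. The rises in paclitaxel-resistant cells were 0.88 ± 0.13 (adjusted p = 0.00055) for EIF3L and 0.57 ± 0.12 (adjusted p = 0.00478) for EIF3D. TNRC6B, a scaffold of microRNA-directed silencing, read 96.6, 101 and 87.5 in paclitaxel-resistant, 55.8, 54.6 and 85.1 in docetaxel-resistant and 24.7, 18.9 and 30.3 in sensitive cells, and rose by 1.43 ± 0.15 (adjusted p = 7.78e-05) in paclitaxel-resistant and 0.85 ± 0.15 (adjusted p = 0.00237) in docetaxel-resistant cells. Of 16 genes of transcription and RNA processing 5 rose and none fell in paclitaxel-resistant cells, and 3 rose and 3 fell in docetaxel-resistant cells. RTCB, the tRNA-splicing ligase, read 1027, 777 and 871 in paclitaxel-resistant, 706, 733 and 682 in docetaxel-resistant and 585, 454 and 431 in sensitive cells, rising by 0.83 ± 0.14 (adjusted p = 0.00173) in paclitaxel-resistant cells.

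The tumour suppressors, fusion partners and chromatin regulators numbered 18. In paclitaxel-resistant cells 8 rose and 2 fell, and in docetaxel-resistant cells 4 rose and 3 fell. HMGXB4, a high mobility group chromatin protein, read 227, 205 and 158 in paclitaxel-resistant, 101, 151 and 195 in docetaxel-resistant and 85.6, 27.7 and 80.5 in sensitive cells and rose by 1.47 ± 0.27 (adjusted p = 0.0026) in paclitaxel-resistant and 0.95 ± 0.27 (adjusted p = 0.0279) in docetaxel-resistant cells, the second of these lost in 6 of 20 other settings. TCF20, a transcriptional coregulator, read 229, 217 and 164 in paclitaxel-resistant, 139, 159 and 168 in docetaxel-resistant and 85.6, 61.7 and 125 in sensitive cells and rose by 1.02 ± 0.16 (adjusted p = 0.00117) in paclitaxel-resistant cells. Another TCF20 probe set, averaging 99.3 over all arrays, gave -0.27 in paclitaxel-resistant and -0.28 in docetaxel-resistant cells. It was called in neither line, so the rise of TCF20 rests on the brighter probe set. CBX7, a Polycomb subunit, read 202, 143 and 135 in paclitaxel-resistant, 86, 88.1 and 77.7 in docetaxel-resistant and 76.5, 75.3 and 116 in sensitive cells. It was higher in paclitaxel-resistant cells by 0.68 (adjusted p = 0.00901) against sensitive and by 0.92 (adjusted p = 0.0129) against docetaxel-resistant cells.

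SMARCB1, a core subunit of the SWI/SNF remodelling complex, read 205, 163 and 216 in paclitaxel-resistant, 129.9, 144 and 126 in docetaxel-resistant and 232, 197 and 194 in sensitive cells. All docetaxel-resistant arrays lay below all other arrays, and the paclitaxel-resistant arrays overlapped the sensitive ones. The difference was -0.10 ± 0.15 (adjusted p = 0.709) in paclitaxel-resistant and -0.73 ± 0.15 (adjusted p = 0.00585) in docetaxel-resistant cells. Leaving out probe sets that can match several transcripts, it was -0.06 in docetaxel-resistant cells. The SMARCB1 probe set then used averaged 13.8 over all arrays. That is below the offset added to the intensities, so this value cannot decide whether SMARCB1 fell. HIRA, a histone chaperone, read 51.3, 54 and 52.2 in paclitaxel-resistant, 63.4, 74.4 and 72.7 in docetaxel-resistant and 102, 91.9 and 125 in sensitive cells, and BCR, whose fusion with ABL1 drives chronic myeloid leukaemia, read 78, 77.9 and 70.4 in paclitaxel-resistant, 53.7, 87.9 and 69.1 in docetaxel-resistant and 116, 95.8 and 158 in sensitive cells. Both fell in both lines. The log2 differences of HIRA were -0.92 (adjusted p = 0.00042) in paclitaxel-resistant and -0.68 (adjusted p = 0.00266) in docetaxel-resistant cells, and those of BCR -0.66 (adjusted p = 0.0117) in paclitaxel-resistant and -0.86 (adjusted p = 0.00286) in docetaxel-resistant cells. NF2, the merlin tumour suppressor, and EWSR1, an RNA-binding fusion partner, were not called in either line: NF2 stood at 0.22 in paclitaxel-resistant and -0.19 in docetaxel-resistant cells, and EWSR1 at -0.14 in paclitaxel-resistant and -0.20 in docetaxel-resistant cells.

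Of 21 kinases, phosphatases and signalling adaptors 8 rose and 2 fell in paclitaxel-resistant cells, and 1 rose and 3 fell in docetaxel-resistant cells. PPM1F, a phosphatase of calmodulin-dependent kinases, read 310.5, 285 and 299.7 in paclitaxel-resistant, 282, 277 and 237 in docetaxel-resistant and 661, 472 and 709 in sensitive cells. Both resistant lines lay below the sensitive cells on every array, with differences of -0.997 ± 0.16 (adjusted p = 0.000997) in paclitaxel-resistant and -1.26 ± 0.16 (adjusted p = 0.000224) in docetaxel-resistant cells. PITPNB, a phosphatidylinositol transfer protein, read 554, 493 and 479.5 in paclitaxel-resistant, 497, 443 and 518 in docetaxel-resistant and 242, 255 and 282 in sensitive cells, and rose by 0.91 (adjusted p = 0.00117) in paclitaxel-resistant and 0.76 (adjusted p = 0.00357) in docetaxel-resistant cells. SBF1, a catalytically inactive relative of the myotubularin phosphatases, rose by 0.84 (adjusted p = 0.0057) in paclitaxel-resistant cells and stood at 0.05 (adjusted p = 0.882) in docetaxel-resistant cells.

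Of 10 cytokines, growth factors and receptors, CELSR1 and PLXNB2 rose in paclitaxel-resistant cells and PDGFB rose in docetaxel-resistant cells. PDGFB, a platelet-derived growth factor chain, read 76.5, 27.3 and 67.7 in paclitaxel-resistant, 96.8, 114 and 96.9 in docetaxel-resistant and 32, 26.7 and 55 in sensitive cells. The docetaxel-resistant arrays lay above all others, with a difference of 1.01 ± 0.25 (adjusted p = 0.0144) from sensitive cells. Paclitaxel- minus docetaxel-resistant cells gave -0.69 ± 0.25 (adjusted p = 0.227), which did not pass the test. The docetaxel call was lost in 4 of 21 other settings, and in 1 of these, without probe sets that can match several transcripts, the value turned to -0.088. The PDGFB probe set then used was dim, averaging 23.3 over all arrays. Another one, averaging 31.0, gave 1.08 in docetaxel-resistant cells, and a further one, averaging 7.26, gave -0.06. In 21 genes of lysosomes, membrane trafficking and glycosylation, 7 rose and 1 fell in paclitaxel-resistant cells and 2 rose and 3 fell in docetaxel-resistant cells. AP1B1, a subunit of the clathrin adaptor of the trans-Golgi network, read 362, 291 and 421 in paclitaxel-resistant, 205, 243 and 192 in docetaxel-resistant and 272, 182 and 207 in sensitive cells, and rose by 0.65 (adjusted p = 0.0189) against sensitive and by 0.82 (adjusted p = 0.0341) against docetaxel-resistant cells, the second call being lost in 11 of 21 other settings. SYNGR1, a vesicle membrane protein, read 173, 147 and 132 in paclitaxel-resistant, 132, 177 and 134 in docetaxel-resistant and 35.2, 50 and 63.5 in sensitive cells. It rose by 1.30 (adjusted p = 0.000437) in paclitaxel-resistant and 1.13 (adjusted p = 0.00112) in docetaxel-resistant cells, but the difference was 0.19 in each line once probe sets that can match several transcripts were left out. The SYNGR1 probe set then used averaged only 34.3 over all arrays. A further one, averaging 23.3, gave -0.09 in paclitaxel-resistant and -0.13 in docetaxel-resistant cells.

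Of 24 metabolic and detoxifying enzymes 5 rose and 3 fell in paclitaxel-resistant cells, and 1 rose and 5 fell in docetaxel-resistant cells. HMGXB4 is on this list without being an enzyme. GSTT2, a glutathione transferase, read 101, 77.2 and 84.7 in paclitaxel-resistant, 77.8, 87 and 62.7 in docetaxel-resistant and 146, 153 and 216 in sensitive cells, and fell, with differences of -0.90 (adjusted p = 0.00281) in paclitaxel-resistant and -1.17 (adjusted p = 0.00062) in docetaxel-resistant cells, although its near-identical copy GSTT2B cannot be told apart by array probes with certainty. GGT5, which cleaves glutathione conjugates, read 138, 136 and 149 in paclitaxel-resistant, 48.7, 55.8 and 34.2 in docetaxel-resistant and 120.0, 120.0 and 143 in sensitive cells. Docetaxel-resistant arrays were lower than all the rest, with a difference from sensitive cells of -1.35 ± 0.17 (adjusted p = 0.00022), while paclitaxel-resistant cells differed by 0.08 ± 0.17 (adjusted p = 0.806), and the lines differed by 1.43 ± 0.17 (adjusted p = 0.00121). TPST2, a tyrosylprotein sulfotransferase of the Golgi apparatus, read 155, 123 and 141 in paclitaxel-resistant, 132, 203 and 159 in docetaxel-resistant and 288, 236 and 332 in sensitive cells. It fell in both lines, with differences of -0.97 (adjusted p = 0.000841) in paclitaxel-resistant and -0.89 (adjusted p = 0.00152) in docetaxel-resistant cells.

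**Figure D4:**
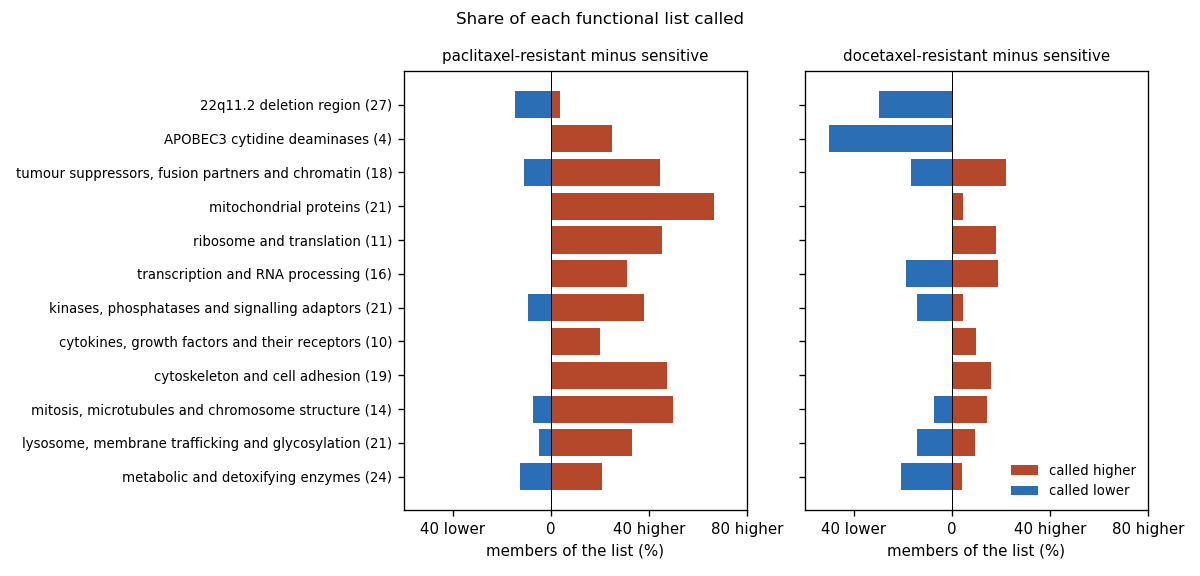
Share of each of 12 lists (number of genes in brackets) called higher (right of 0) or lower (left of 0), in paclitaxel-resistant minus sensitive cells on the left and docetaxel-resistant minus sensitive cells on the right. Mitochondrial genes have 14 of 21 called higher on the left, and the 22q11.2 genes have 4 of 27 called lower on the left and 8 of 27 on the right.

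Of 27 genes of the 22q11.2 interval 1 rose and 4 fell in paclitaxel-resistant cells, and none rose and 8 fell in docetaxel-resistant cells, with medians of -0.08 in paclitaxel-resistant and -0.23 in docetaxel-resistant cells. SERPIND1, which encodes heparin cofactor II, read 12.8, 14.2 and 18 in paclitaxel-resistant, 5.79, 5.64 and 13.2 in docetaxel-resistant and 83.2, 68.1 and 86.2 in sensitive cells. It was lower in both resistant lines on every array, with values around or below 18, and the differences were -1.71 ± 0.15 (adjusted p = 1.63e-05) in paclitaxel-resistant and -2.10 ± 0.15 (adjusted p = 3.13e-06) in docetaxel-resistant cells. Since the resistant arrays read around or below the offset of 16, the offset sets the size: with offsets of 1 and 64 the values were -2.44 and -0.92 in paclitaxel-resistant and -3.37 and -1.06 in docetaxel-resistant cells, called in each case. UFD1, an adaptor of the VCP segregase, read 557, 504 and 528 in paclitaxel-resistant, 473, 635 and 613 in docetaxel-resistant and 1298, 605 and 916 in sensitive cells, and fell, with differences of -0.76 (adjusted p = 0.00884) in paclitaxel-resistant and -0.73 (adjusted p = 0.0116) in docetaxel-resistant cells. MED15, a Mediator subunit, read 333, 339.7 and 369 in paclitaxel-resistant, 217, 227 and 210.3 in docetaxel-resistant and 270.3, 237 and 338 in sensitive cells. MED15 fell in docetaxel-resistant cells, at -0.48 (adjusted p = 0.0455), where the call was lost in 12 of 20 other settings, and was higher in paclitaxel- than in docetaxel-resistant cells by 0.74 (adjusted p = 0.0304).

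The 4 measured APOBEC3 genes, which encode single-stranded DNA cytidine deaminases, had different calls in the lines. APOBEC3B read 494, 338 and 463 in paclitaxel-resistant, 202, 216 and 211 in docetaxel-resistant and 386, 309.8 and 428 in sensitive cells. Its docetaxel-resistant arrays lay below all others, and paclitaxel-resistant and sensitive arrays overlapped, with 0.16 ± 0.15 (adjusted p = 0.502) in paclitaxel-resistant and -0.92 ± 0.15 (adjusted p = 0.00118) in docetaxel-resistant cells and 1.08 ± 0.15 (adjusted p = 0.00309) between the lines. APOBEC3C read 197, 279 and 287 in paclitaxel-resistant, 162, 166 and 163 in docetaxel-resistant and 147, 107 and 145 in sensitive cells, and rose by 0.80 ± 0.18 (adjusted p = 0.00872) in paclitaxel-resistant cells. APOBEC3G read 33.5, 54.6 and 46.1 in paclitaxel-resistant, 31.1, 39.2 and 31.6 in docetaxel-resistant and 49.2, 57.2 and 52.2 in sensitive cells, lower in docetaxel-resistant than in sensitive cells, at -0.62 ± 0.18 (adjusted p = 0.0287), a call lost in 6 of 20 other settings, and APOBEC3F was called in neither line. Probes of these related genes can bind one another's transcripts.

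Among other members chosen for their size of change, ATXN10, whose expanded intronic repeat causes a spinocerebellar ataxia, read 1623, 1449 and 1495 in paclitaxel-resistant, 853, 1050 and 1247 in docetaxel-resistant and 539, 276 and 466 in sensitive cells. It was higher in both resistant lines on every array, by 1.82 ± 0.16 (adjusted p = 2.09e-05) in paclitaxel-resistant and 1.22 ± 0.16 (adjusted p = 0.000368) in docetaxel-resistant cells. TUG1, a long noncoding RNA, read 377, 314 and 320.3 in paclitaxel-resistant, 212, 197 and 491 in docetaxel-resistant and 102, 55 and 59.4 in sensitive cells, with rises of 1.98 ± 0.27 (adjusted p = 0.000471) in paclitaxel-resistant and 1.60 ± 0.27 (adjusted p = 0.0018) in docetaxel-resistant cells. One docetaxel-resistant array at 491 stood above the other 2 at 197 and 212, and without probe sets that can match several transcripts the value was 0.85 in paclitaxel-resistant and 0.62 in docetaxel-resistant cells. WNT7B, a Wnt ligand, read 23.1, 19.5 and 16.3 in paclitaxel-resistant, 34.4, 35.2 and 29.6 in docetaxel-resistant and 53.9, 54.4 and 72.5 in sensitive cells, and fell, with differences of -1.19 (adjusted p = 0.00011) in paclitaxel-resistant and -0.77 (adjusted p = 0.002) in docetaxel-resistant cells. PEX26, a peroxisomal membrane protein, read 56.7, 67.7 and 58.4 in paclitaxel-resistant, 75.5, 99.1 and 86.3 in docetaxel-resistant and 108, 105 and 141 in sensitive cells, and fell, with differences of -0.87 (adjusted p = 0.0017) in paclitaxel-resistant and -0.56 (adjusted p = 0.0203) in docetaxel-resistant cells. For WNT7B and PEX26 every array of both resistant lines lay below every sensitive array. SHISAL1 read 109.8, 54.7 and 64 in paclitaxel-resistant, 22.6, 33.1 and 32.4 in docetaxel-resistant and 22.8, 13.4 and 25.1 in sensitive cells, a rise of 1.27 ± 0.19 (adjusted p = 0.000837) in paclitaxel-resistant cells. SRRD read 81.6, 46.3 and 90.9 in paclitaxel-resistant, 81.6, 106 and 103 in docetaxel-resistant and 137, 114 and 149 in sensitive cells, and fell, with differences of -0.86 (adjusted p = 0.00554) in paclitaxel-resistant and -0.58 (adjusted p = 0.0392) in docetaxel-resistant cells, the second call being lost in 11 of 20 other settings. ZMAT5, a protein of the minor spliceosome, read 84, 66.7 and 88.2 in paclitaxel-resistant, 60, 63.1 and 49.8 in docetaxel-resistant and 102, 85.4 and 117 in sensitive cells, lower in docetaxel-resistant than in sensitive cells, at -0.83 (adjusted p = 0.00181).

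Further genes set the resistant lines apart from each other. TTC38 read 457, 430.2 and 416 in paclitaxel-resistant, 208, 281 and 242 in docetaxel-resistant and 263, 212 and 232 in sensitive cells, with 0.82 (adjusted p = 0.00106) against sensitive and 0.91 (adjusted p = 0.00445) against docetaxel-resistant cells. Other TTC38 probe sets, averaging 80.8 and 82.1 over all arrays, gave 0.29 and 0.31 against sensitive cells. Against docetaxel-resistant cells each gave 0.25, and none of these values was called. POLDIP3, which takes part in mRNA export, read 615, 441 and 589.8 in paclitaxel-resistant, 271, 353 and 292 in docetaxel-resistant and 404, 287 and 349 in sensitive cells. It stood at 0.61 (adjusted p = 0.0108) against sensitive and 0.90 (adjusted p = 0.00959) against docetaxel-resistant cells, but at 0.06 in both comparisons without probe sets that can match several transcripts. The POLDIP3 probe set then used was dim, averaging 20.9 over all arrays. A further one, averaging 169, gave -0.08 against sensitive and 0.37 against docetaxel-resistant cells. GUSBP11, a pseudogene related to the beta-glucuronidase gene GUSB, read 133, 64.7 and 109 in paclitaxel-resistant, 38.4, 49.4 and 53.7 in docetaxel-resistant and 65.4, 79.3 and 82.2 in sensitive cells, and differed by 0.96 (adjusted p = 0.0287) between the lines. GUSBP11 shares sequence with its relatives, and the value was -0.05 without probe sets that can match several transcripts. IFT27, an intraflagellar transport gene, and PMM1, a phosphomannomutase gene, complete the 20 calls and were added after their values were seen. IFT27 read 466, 423 and 436 in paclitaxel-resistant, 278, 342 and 273 in docetaxel-resistant and 206, 187 and 212 in sensitive cells and differed between the lines by 0.65 (adjusted p = 0.0375), and PMM1 read 449.9, 352 and 348 in paclitaxel-resistant, 210.3, 282 and 278 in docetaxel-resistant and 251, 222 and 234 in sensitive cells and differed by 0.66 (adjusted p = 0.0276).

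Genes with more than 1 probe set gave a second reading of the same RNA. Of the 75 genes called higher in paclitaxel-resistant cells 38 had further probe sets, 63 in all, and 51 of these had the same sign, 25 were called in the same direction and 1, for THOC5, was called lower. For the 27 genes called lower in docetaxel-resistant cells, 12 of 13 further probe sets had the same sign and 3 were called. For the 20 genes called between the resistant lines, 17 of 20 further probe sets had the same sign and 3 were called. Probe sets of a gene share the same RNA and are no replicates.

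Chromosome by chromosome, with the genes set aside counted in (312 genes), chromosome 22 had a median of 0.19 in paclitaxel-resistant minus docetaxel-resistant cells, the highest of 24 chromosomes, and 7.05% of its genes were called, also the highest share. Against sensitive cells it had 33% called in the paclitaxel-resistant line, the highest share, with a median second to that of chromosome 18. In the docetaxel-resistant line its median ranked 17th of 24. Chromosome 18 (174 genes) had 50 genes called higher and 4 lower in paclitaxel-resistant and 51 higher and 2 lower in docetaxel-resistant cells, so its calls were similar in number in both lines. Chromosome 15 (360 genes) had 41 called higher and 34 lower in paclitaxel-resistant cells and 94 higher and 21 lower in docetaxel-resistant cells, and 19 lower and 0 higher in paclitaxel- than in docetaxel-resistant cells. These ranks describe the differences the chromosome was selected on and are not tested.

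**Figure D5:**
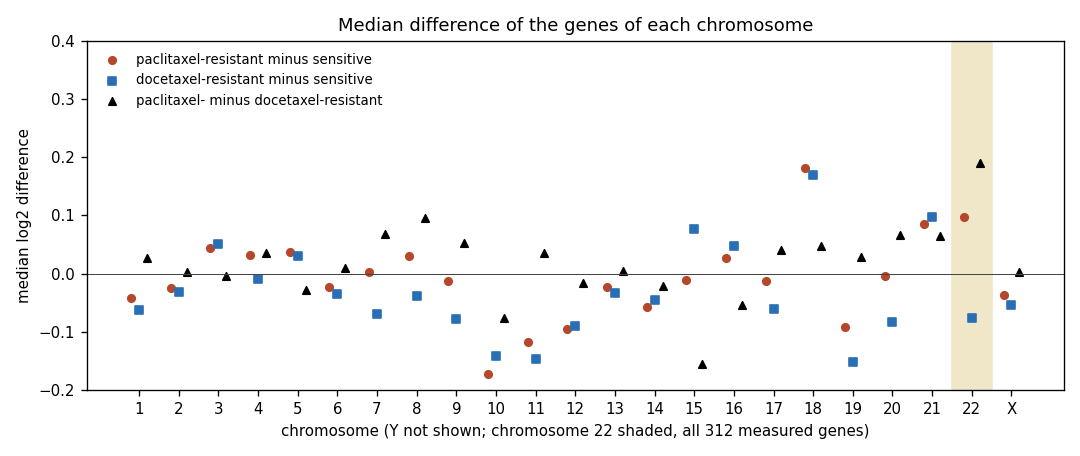
Median log2 difference of the genes of each chromosome (vertical axis) in paclitaxel-resistant minus sensitive cells (circles), docetaxel-resistant minus sensitive cells (squares) and paclitaxel- minus docetaxel-resistant cells (triangles). Chromosome 22, shaded, stands at 0.10, -0.08 and 0.19 in that order.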

How the data were processed

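Affymetrix arrays measured total RNA of MDA-MB-231 cells in 3 groups of 3 passages. The deposited table holds 1 linear intensity per probe set and array. Per the submitters' processing notes the authors made these intensity values with Affymetrix Expression Console 1.1.2 and PLIER; their background correction and normalization are not given in the sources. Of 22283 probe sets 68 were controls, which left 22215 human probe sets. A single gene was named by 19065, several genes by 1043 and no gene by 2107, and 12 of the first kind were not in the gene table. Where a gene had several probe sets, the one brightest on average was used. Values became log2(intensity + 16), which understates differences of dim genes, and because array medians differed by 0.27, over the limit of 0.2, arrays were quantile-normalized. Arrays hold no counts, so their number limits the precision. The median standard error of a chromosome 22 gene was 0.16.

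R 4.3.3 with limma 3.58.1 fitted 3 group means with eBayes moderation (degrees of freedom: 6 residual, 5.38 prior) and two-sided p-values adjusted over all 11954 genes. The procedure was tested on simulated data. Same-numbered arrays did not all deviate together, so numbers were not taken to pair samples. Chromosome 22 genes, the 12 lists and the markers were chosen with earlier results of these data known, as was the naming rule: per comparison the 10 largest increases and 10 largest decreases among calls with groups that do not overlap and a higher group above the median level, genes called in opposite directions in both lines, the 3 longest stretches, up to 3 calls of each list with the smallest adjusted p, and NF2, SMARCB1, EP300, EWSR1, BCR, MYH9, PDGFB and APOBEC3B. Some items are not reported here. Any other gene was named with its values in view. The lists overlap, and 162 of the 285 genes are on 1 or more. Alternative settings covered the offset, normalization, probe set choice, model and left-out arrays.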

Additional observations from a re-analysis of the deposited data

Results flagged for a closer look

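The 2 resistant lines, each set against the same sensitive cells, differed by limma's test of the difference itself in 20 chromosome 22 genes, all higher in paclitaxel-resistant cells. The log2 differences of paclitaxel- minus docetaxel-resistant cells were as follows. Among genes of transcription, RNA and chromatin they were 0.74 for MED15, 0.92 for CBX7 and 0.90 for POLDIP3. Among genes of the cytoskeleton, nuclear envelope and cilia they were 1.26 for GAS2L1, 0.80 for TRIOBP, 1.03 for SUN2, 0.86 for TTLL1, 0.65 for IFT27 and 0.60 for PACSIN2. Among enzymes and signalling genes they were 1.43 for GGT5, 0.66 for PMM1, 0.81 for PPP6R2, 0.79 for SBF1, 0.93 for SCO2, 1.08 for APOBEC3B and 0.78 for GTPBP1. AP1B1 stood at 0.82, TTC38 at 0.91, SHISAL1 at 1.02 and GUSBP11 at 0.96.

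These genes reached their difference in different ways. GGT5 and APOBEC3B were called lower in docetaxel-resistant cells and not called in paclitaxel-resistant cells, whereas TTC38, PPP6R2, SUN2 and POLDIP3 were called higher in paclitaxel-resistant cells and not called in docetaxel-resistant cells. Other probe sets of TTC38, PPP6R2 and POLDIP3 gave smaller differences between the lines, given above. GAS2L1 was called higher in both. The RNA quality measure, the 3' minus 5' difference of GAPDH, was 0.20, 0.094 and 0.10 in paclitaxel-resistant and 0.13, 0.070 and 0.0067 in docetaxel-resistant cells, and its part in these differences was not tested.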

How the results depend on the processing

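In docetaxel-resistant cells the 19 genes called higher became 12 with an offset of 1, 10 without probe sets that can match several transcripts and 12 when the dimmest and the brightest array by median were dropped, and the 27 called lower became 14 without normalization, 12 and 13. The median was 0.0146 without normalization and 0.0074 without those 2 arrays, and -0.13 and -0.040 with offsets of 1 and 64. In paclitaxel-resistant cells the 75 called higher became 45 without probe sets that can match several transcripts, and the median of 0.098 was 0.37 in genes at or above the median level, 0.159 with an offset of 1, 0.050 with an offset of 64, 0.055 with median centring and 0.048 without those probe sets. Between the lines the 20 called became 9 with an offset of 1, 36 with an offset of 64, 9 without normalization, 10 without those probe sets and 12 without the 2 arrays, and the median became 0.11 with an offset of 64, 0.12 without normalization and 0.36 in the brighter genes. Leaving out those probe sets leaves 206 of the genes. With 1 array left out at a time the ranges were 11 to 19 higher, 15 to 27 lower and medians -0.09 to -0.04 in docetaxel-resistant cells, 52 to 74 higher, 11 to 13 lower and medians 0.07 to 0.14 in paclitaxel-resistant cells, and 9 to 23 higher, 0 lower and medians 0.15 to 0.23 between the lines. Without those probe sets PDGFB reversed to -0.088 in docetaxel-resistant cells, PLXNB2 to -0.31 in paclitaxel-resistant cells and GUSBP11 to -0.048 between the lines. The probe sets then used averaged 23.3 for PDGFB, 22.8 for PLXNB2 and 55.2 for GUSBP11 over all arrays. Apart from the changes that fewer probe sets or arrays bring by construction, the cause was not tested. With the replicate block 16 genes were called higher and 23 lower in docetaxel-resistant cells, 69 and 12 in paclitaxel-resistant cells and 14 and 0 between the lines, and correlations of same-numbered arrays ran from -0.45 to 0.34. Of 2220 values of 108 called gene results 1934 kept direction and call, 283 lost the call and 3 reversed, and of 1728 values of 84 results not called 34 gained one. Among the 21 settings, counting in the genes set aside repeats the main fit for single genes, so no call of a gene could change there. The numbers of other settings given for single genes include it.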

Other observations

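The 27 chromosome 22 genes set aside had 11 called higher (40.7%) and 4 lower (14.8%) in paclitaxel-resistant cells. In docetaxel-resistant cells they had 6 higher (22.2%) and 6 lower (22.2%). Their medians were -0.04 in paclitaxel-resistant and 0.08 in docetaxel-resistant cells. The 123 members on none of the 12 lists had 19 called higher (15.4%) and 4 lower (3.25%) in paclitaxel-resistant cells. In docetaxel-resistant cells they had 5 higher (4.07%) and 6 lower (4.88%). Of all genes 10.9% were called higher and 10.7% lower in paclitaxel-resistant cells, and 10.9% and 10.2% in docetaxel-resistant cells. Over 9 neighbouring genes, the median of paclitaxel- minus docetaxel-resistant cells was highest at DNAL4, at 0.69, and lowest at CLTCL1, at -0.04.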
